A study of Mus musculus with 18 samples.

Results

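The genes described here are 10 markers of contractile smooth muscle and of pericytes, read in the cells of the mouse glomerulus: Acta2, Tagln, Myh11, Cnn1, Des, Myl9, Tpm2, Rgs5, Cald1 and Smtn. A gene was taken where its symbol stood in the annotation column of the deposited table, and all 10 were found among 22909 symbols and 28856 transcript clusters, the probe groups by which this array reads a gene. Rgs5 had 2 clusters and was read from the brighter of them.

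The samples were podocytes, mesangial cells and endothelial cells, sorted from sieved and dissociated glomeruli by the green fluorescence of a reporter transgene. Each cell type had a reporter of its own, Meis1-GFP in mesangial cells and Tie2-GFP in endothelial cells, so the reporter and the cell type cannot be told apart. Each cell type came from Cd2ap mutant mice (genotype CD2AP-/- in the records, allele Cd2ap tm1Shaw on a B6.129X1 background) and from wild type mice, all at 5 weeks of age, with 3 arrays in each of the 6 groups and 18 in all. The mutation is carried in all cells of the animal. The column names of the mesangial controls bear a plus and a minus sign, and those of the other controls plus signs alone. The sample titles differ too, with the word control for the mesangial samples and wild type for the others. Elsewhere the records call all of them wild type, the name used here. It is thus uncertain if the mesangial control arrays came from heterozygous mice. The study calls the mesangial replicates independent biological ones, but the records do not tie an array to 1 animal, and p-values measure the spread between these arrays. Arrays of a group are called A, B and C only to tell them apart.

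Contractile smooth muscle shortens when myosin filaments, built from the heavy chain of Myh11 and regulated through the light chain of Myl9, pull on thin filaments of the actin Acta2. Tpm2, Cald1, Cnn1 and Tagln encode proteins that lie along or bundle these thin filaments, Smtn encodes a protein of the contractile apparatus that binds actin, and Des the intermediate filament desmin. Rgs5 encodes a regulator of G protein signalling and is a widely used marker of pericytes, the contractile cells that wrap small vessels. Mesangial cells are the contractile pericyte-like cells between the glomerular capillaries, and smooth muscle of the arterioles sits at the vascular pole. Serum response factor, encoded by Srf, drives many contractile genes through a DNA element named the CArG box, with the coactivators myocardin (Myocd) and Mkl1 and Mkl2.

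The promoters are shown because the members other than Smtn differed together between cell types, which the values below describe, and because Srf and its coactivators were also measured. RefSeq windows of 250 bases before the start of a transcript (build GRCm38.p6) were given for 8 of the 10 genes, all but Tagln and Myh11. Both strands were searched for the CArG box, 10 letters in which a core of A and T lies between CC and GG, and for a relaxed form in which 1 of the core letters is C or G. The box reads as the same kind of word on either strand, so each match is counted once, and the exact and the relaxed form exclude each other at a position. Of 32851 such windows in the RefSeq table, 1.47% held the exact form, 7.24% the relaxed form and 8.59% either. Among the members, Myl9 held 1 exact and 1 relaxed match, and Acta2 held 2 relaxed matches. A match is a description of letters and not of a bound site. The Myl9 stretch below is chr2:156775214-156775407 on the plus strand and holds its matches in capitals, 161 to 152 and 99 to 90 bases before the start. Only the first 194 bases of its window are printed, up to the RefSeq span of the gene. The window itself, from whose end the distances are counted, runs to 156775463. The Acta2 stretches, on the minus strand, are the 30 bases around each of its matches, chr19:34255438-34255467 and chr19:34255388-34255417, at 84 to 75 and 34 to 25 bases before the start. The Rgs5 stretch, chr1:169655251-169655500 on the plus strand, holds no match and stands beside Myl9 because no other of the genes searched followed Rgs5 as closely across the arrays as Myl9 did.
Myl9: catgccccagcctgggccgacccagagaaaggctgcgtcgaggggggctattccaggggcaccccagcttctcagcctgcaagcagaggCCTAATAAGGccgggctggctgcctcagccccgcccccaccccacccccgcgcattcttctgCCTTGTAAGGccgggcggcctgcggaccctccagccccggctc
Acta2 first match: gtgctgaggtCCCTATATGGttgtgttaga
Acta2 second match: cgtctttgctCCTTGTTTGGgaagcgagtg
Rgs5: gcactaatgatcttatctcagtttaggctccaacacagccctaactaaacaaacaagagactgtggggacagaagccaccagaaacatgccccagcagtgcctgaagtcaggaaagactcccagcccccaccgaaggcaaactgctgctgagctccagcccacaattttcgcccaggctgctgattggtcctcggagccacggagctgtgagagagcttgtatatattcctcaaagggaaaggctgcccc

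Values are RMA signals on a linear scale, made by the authors, and differences are on the log2 scale. The median signal of an array was between 62.8 and 71.6, and 9697 to 10097 clusters per array reached the minimum of 100 that the methods of the study ask for. Arrays of a group correlated with an r of 0.9666 to 0.9916. The labelled cell types carried their markers: the summed signal of 8 podocyte markers was 9606 to 12261 on the podocyte arrays and 2343 to 2715 on the endothelial arrays, and that of 10 endothelial markers was 15411 to 17875 on endothelial arrays. Cd2ap itself was lower in mutant than in wild type mesangial cells by a log2 difference of -0.31 (limma adjusted p = 0.151) and in podocytes by -0.23 (adjusted p = 0.504), and the endothelial difference was 0.18 (adjusted p = 0.336), so the directions given here rest on the labels.

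Some arrays stood apart from their groups. The mutant podocyte arrays correlated with each other at an r of 0.9666 to 0.9712, and array A of them with the wild type podocyte arrays at 0.9813 to 0.9835. Wild type mesangial array C carried markers of other cells: its signal of Podxl, the podocalyxin gene of podocytes and endothelial cells, was 725 against 79.4 and 82.4 on arrays A and B, and its signal of Kdr, a receptor of endothelial cells, was 935 against 77.6 and 81.1. The summed signal of 4 erythroid markers was 7253 on it against 584 and 296, and that of 8 tubule markers 1857 against 463 and 453. Mutant podocyte array C was the lowest of its group in 10 of 10 members, with a median of -1.10 on the log2 scale against the other 2 arrays of the group. Several mesangial markers were low on it as well. Itga8, the integrin alpha 8 chain of mesangial cells, read 724, 472 and 134 on the mutant podocyte arrays A to C and 1154, 1152 and 869 on the wild type ones. Its podocyte markers were not low, with Podxl at 2466, 2426 and 2761 on the mutant arrays and 2839, 2601 and 2920.2 on the wild type ones. Mutant mesangial array A was the lowest of its group in 9 of 10 members, with a median of -0.38 against the other 2 arrays. In these sorted bulk samples, fewer cells of a type and less RNA per cell cannot be told apart.

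**Figure D1:**
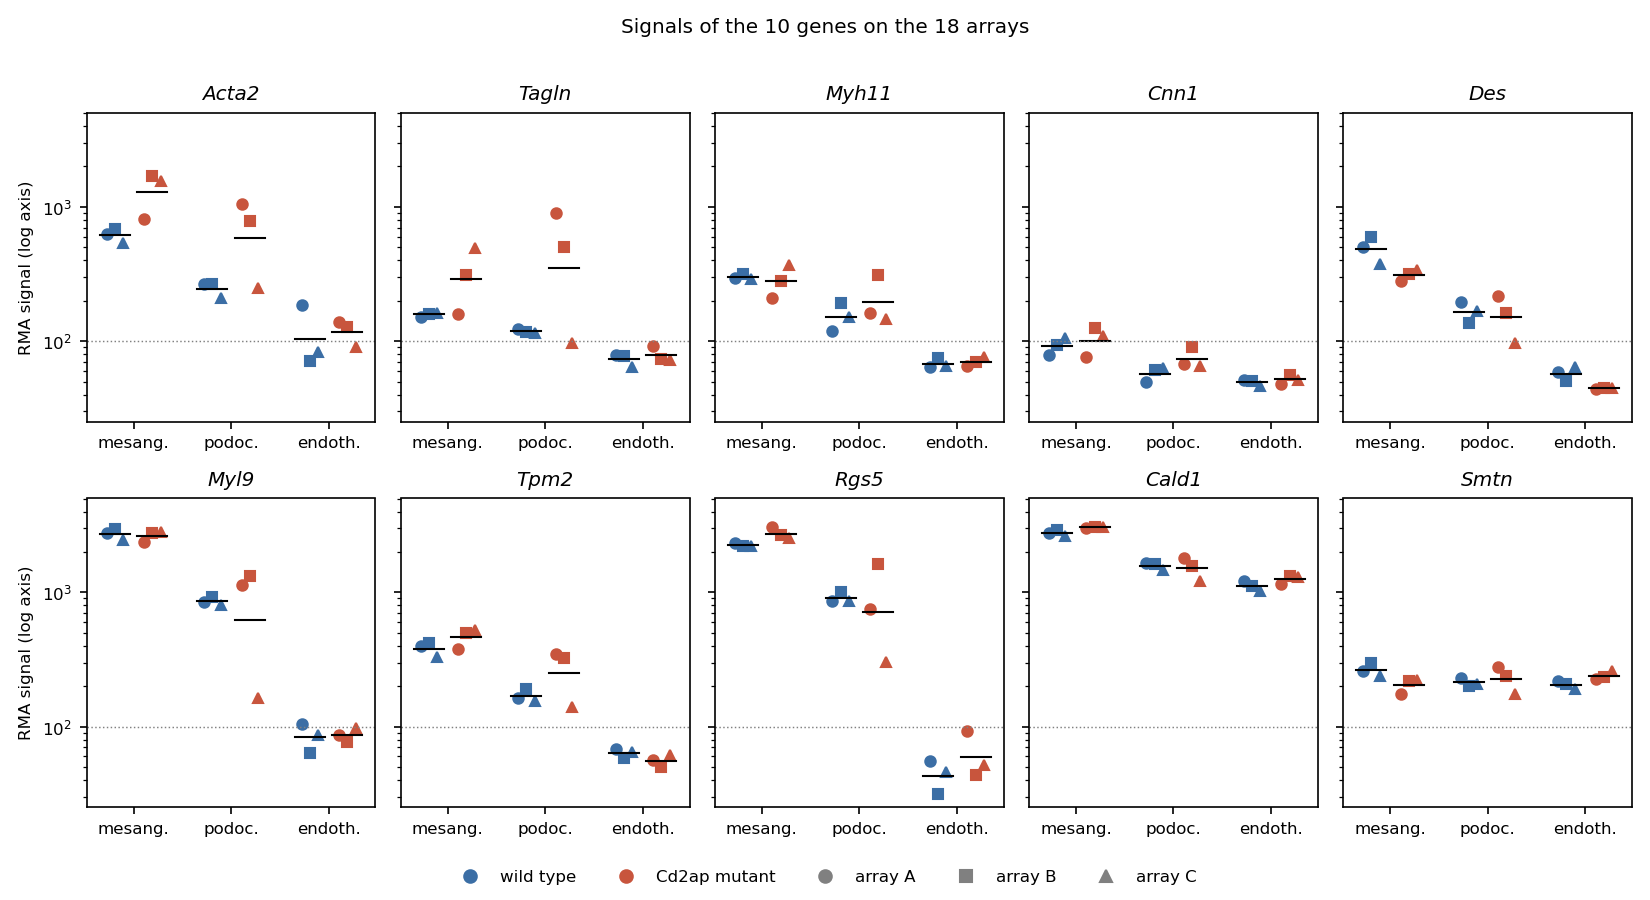
RMA signal (log axis) of each of the 10 genes on the 18 arrays, by cell type and genotype; the black line is the geometric mean of 3 arrays and the dotted line the minimum of 100. The wild type means fall from mesangial to podocyte to endothelial cells in all 10 genes, least in Smtn, and array C of the mutant podocytes (red triangle) is the lowest of its group throughout, with Rgs5 at 300.2 and Myl9 at 163.

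Rgs5 and Myl9 had the widest measured differences from endothelial cells among the 10 genes. Both, like most members, were set against endothelial signals near the floor of the array, so the true differences cannot be ranked. Rgs5 read 2319, 2229 and 2199.5 in wild type mesangial cells, 857, 1010.4 and 869 in wild type podocytes and 55.8, 31.5 and 45.6 in wild type endothelial cells. The 3 groups did not overlap, and the endothelial signals all lay below the minimum of 100. Wild type mesangial cells were higher than endothelial cells by 5.71 on the log2 scale (SE 0.42, 52.2-fold, limma adjusted p = 4.08e-08) and higher than podocytes by 1.31 (SE 0.42, 2.47-fold, adjusted p = 0.034). A fold against signals this low depends on the floor of the array: with 50 added to each signal before the logarithm the first of these was 24.5-fold. The second Rgs5 cluster gave the same order, with 1175, 1189 and 1093 in wild type mesangial cells, 434, 509.6 and 460.0 in podocytes and 47.8, 35.0 and 40.4 in endothelial cells.

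Myl9, the regulatory light chain, read 2774, 2978 and 2433 in wild type mesangial cells, 843, 926 and 806 in wild type podocytes and 104, 63.9 and 86.1 in wild type endothelial cells. The mesangial arrays were again the highest and the endothelial arrays the lowest, without overlap. The mesangial minus endothelial difference was 5.03 (SE 0.51, 32.7-fold, adjusted p = 1.59e-06; 20.7-fold with 50 added), and the mesangial minus podocyte difference was 1.67 (SE 0.51, 3.17-fold, adjusted p = 0.0273).

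Desmin and the thin filament genes followed the same order of cell types. Des read 502, 594 and 376.6 in wild type mesangial cells, 196, 137 and 169 in podocytes and 58.4, 50.1 and 64.1 in endothelial cells. Its mesangial minus endothelial difference was 3.07 (SE 0.23, 8.43-fold, adjusted p = 5.02e-08; 4.96-fold with 50 added) and its mesangial minus podocyte difference 1.54 (SE 0.23, adjusted p = 0.000127). Acta2, smooth muscle actin, read 627, 680.4 and 539 in wild type mesangial cells, 266, 264 and 209 in podocytes and 186, 70.9 and 82.3 in endothelial cells, where array A was the highest and above 100. The mesangial arrays lay above all others. Its differences were 2.57 (SE 0.45, adjusted p = 0.000343) against endothelial cells and 1.32 (SE 0.45, adjusted p = 0.0424) against podocytes.

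Tpm2, a tropomyosin that lies along actin filaments, read 397, 420.3 and 332 in wild type mesangial cells, 164, 192 and 156 in podocytes and 67.7, 58.0 and 65.2 in endothelial cells, a mesangial minus endothelial difference of 2.59 (SE 0.25, 6.01-fold, adjusted p = 7.73e-07; 3.8-fold with 50 added). Myh11, the smooth muscle myosin heavy chain, read 293, 315 and 288, 118, 192 and 151 and 63.9, 74.2 and 65.3 in these cell types in the same order, a difference of 2.14 (SE 0.25, adjusted p = 6.23e-06). For both genes the 3 wild type groups did not overlap. Cald1, caldesmon, was well above the minimum in every cell type, with 2749, 2901 and 2624 in wild type mesangial cells, 1642, 1616 and 1472 in podocytes and 1220.4, 1120.3 and 1021 in endothelial cells, a difference of 1.30 between the first and the last (SE 0.12, 2.47-fold, adjusted p = 5.27e-07).

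The last 3 members were lower or flatter. Cnn1, calponin, read 78.6, 93.8 and 106 in wild type mesangial cells, 49.2, 61.0 and 62.6 in podocytes and 51.5, 50.3 and 46.6 in endothelial cells, so that 1 of these 9 arrays reached 100, and the mesangial minus endothelial difference was 0.90 (SE 0.18, adjusted p = 0.000999). Tagln, the SM22 protein, read 152, 159 and 163, 122, 118 and 115 and 79.2, 77.4 and 64.6. The wild type groups of Tagln did not overlap, but in the fit over all 18 arrays, in which the spread of the mutant arrays counts, neither its mesangial minus podocyte difference of 0.42 (SE 0.55, adjusted p = 0.624) nor its mesangial minus endothelial difference of 1.11 (SE 0.55, adjusted p = 0.155) passed. Smtn, smoothelin, read 258, 299 and 238 in wild type mesangial cells, 232, 202 and 208 in podocytes and 217, 208 and 190.3 in endothelial cells. Its podocyte and endothelial arrays overlapped, and no difference between wild type cell types passed the test in the fit over all 18 arrays, the 95% interval of mesangial minus podocyte being -0.01 to 0.62.

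Counted over the 10 genes, 8 were higher in wild type mesangial cells than in podocytes at an adjusted p under 0.05, where 13.6% of 13523 clusters tested were higher. The same number, 8, were higher in mesangial than in endothelial cells, against 13.9% of all clusters, and 7 were higher in podocytes than in endothelial cells, against 14.7%. Cnn1, which is in both counts of 8, reached 100 on mesangial arrays alone. With a signal of at least 100 asked in all arrays of a group, each count of 8 became 7. None was lower in these comparisons (9.47%, 13.3% and 18.6% of all clusters were, in the same order), with limma the only tool run and no member lower at an unadjusted p under 0.05 either. The median difference of the members was 1.08, 2.36 and 1.20 on the log2 scale, beside 0.02, -0.02 and -0.01 over all clusters tested. In a fit over the 6 arrays of a comparison alone, whose spread does not include the other groups, 9, 10 and 8 members were higher in these 3 comparisons, against 16.3%, 15.5% and 16.5% of clusters. Tagln passed in all 3 of these fits (adjusted p = 0.00932, 0.000363 and 0.00132) and Smtn between mesangial and endothelial cells (adjusted p = 0.0474). In the 6-array fit of mesangial cells against podocytes Acta2, Myl9 and Rgs5 passed (adjusted p = 0.000706, 0.000231 and 0.000263). In the fit over all 18 arrays, the mesangial to podocyte calls of Acta2, Myl9 and Rgs5 mostly did not hold with fewer arrays. With 1 of the 6 wild type arrays left out at a time, Acta2 and Rgs5 passed in 0 of 6 fits (adjusted p 0.0642 to 0.132 and 0.0608 to 0.0939) and Myl9 in 1 of 6 (0.0475 to 0.0802), so the count was 5 to 6, and it was 6 without wild type mesangial array C. The podocyte minus endothelial call of Acta2 was likewise kept in 1 of 6 fits, the one without wild type endothelial array A (adjusted p 0.0108 to 0.16), while the other 6 members called there passed in all 6.

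The geometric mean of the wild type podocyte arrays was a part of the wild type mesangial one that differed between members. It was 31.5% for Myl9, 34.3% for Des, 40.5% for Rgs5, 57.2% for Cald1, 74.8% for Tagln and 80.9% for Smtn, with the other members between these. The single Rgs5 signals of the podocyte arrays were 38.1%, 44.9% and 38.6% of the wild type mesangial geometric mean and their Myl9 signals 31.0%, 34.1% and 29.6%, beside 38.8%, 38.8% and 29.2% for Itga8 and 42.8%, 34.6% and 30.2% for Pdgfrb, the receptor that marks mesangial cells and pericytes. Over the 10 mesangial markers with Foxd1 set aside, the podocyte part ran from 20.1% for Art3 to 112% for Tbx18. Foxd1 was higher in podocytes than in mesangial cells, by 4.21 on the log2 scale. Podocytes themselves can express Foxd1 and Ptn. The summed signal of the 8 markers other than these was 4241 to 5491 on wild type podocyte arrays, 10660.1 to 12164 on wild type mesangial arrays and 2868 to 3145 on wild type endothelial arrays, the 2 genes having been left out after their values were seen. The part of mesangial RNA in the podocyte values was not tested.

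**Figure D2:**
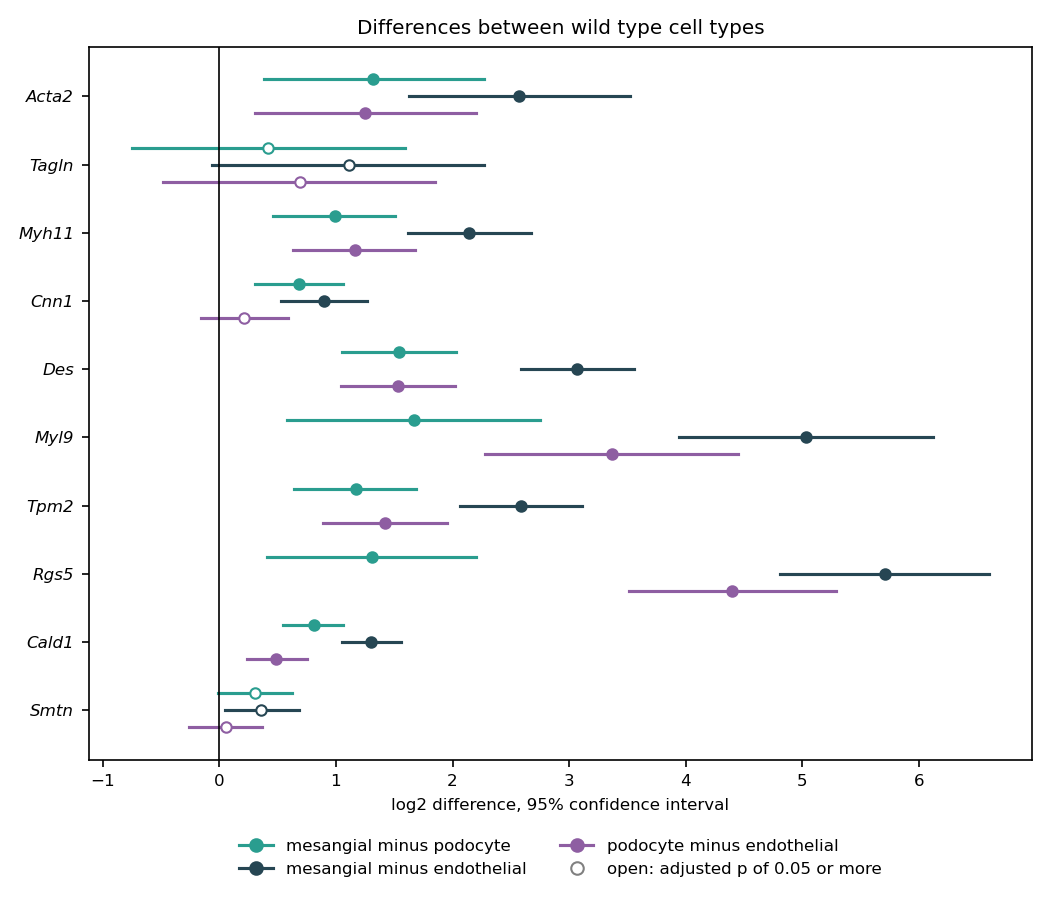
Differences between wild type cell types for each gene (log2 scale, points, with 95% confidence intervals from the fit over 18 arrays); open points did not pass an adjusted p of 0.05. The endothelial comparisons of Rgs5 (5.71) and Myl9 (5.03), set against signals near the floor of the array, lie farthest to the right, and all 3 intervals of Tagln include 0.

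In the mutant arrays the order was kept for most members. Of the 10 genes, 9 were higher in mutant mesangial than in mutant endothelial cells (10.8% of all clusters were higher), 8 in mutant podocytes than in mutant endothelial cells (20.8%) and 5 in mutant mesangial cells than in mutant podocytes (22.8%). The 5 were Des, Myl9, Tpm2, Rgs5 and Cald1. Acta2 missed the threshold there (1.13, SE 0.45, adjusted p = 0.0558), and Tagln was on the other side of 0 (-0.27, SE 0.55, adjusted p = 0.725). Smtn passed in none of the 6 comparisons between cell types in the fit over all 18 arrays. In mutant cells its mesangial arrays (175.6, 219.2 and 222.1) lay below its endothelial ones (224.3, 234.5 and 259.4), the reverse of the wild type order. The last count of 5 became 8 without mutant mesangial array A or without mutant podocyte array B. Without mutant podocyte array C the same 5 were higher, and Tagln passed as lower in mutant mesangial cells than in mutant podocytes (adjusted p = 0.0131). Cnn1, which counts among the 8 higher in mutant podocytes than in mutant endothelial cells, stayed under 100 on all 6 of these arrays and entered the fit through its mesangial signals. It also counts among the 9, which became 8 with a signal of at least 100 asked in all arrays of a group.

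Across the 18 arrays the members other than Smtn had signals that correlated with each other. Over their 36 pairs the Pearson r of log2 signals ran from 0.57 to 0.98 with a median of 0.88, while the 9 pairs with Smtn gave 0.15 to 0.36, with a median of 0.25. These r values describe 18 arrays that share cell type, reporter and amplification within a group. After the mean of each group was subtracted the median of the 36 pairs was 0.66, and 0.29 with the mutant podocyte arrays left out. The pairs with Smtn then had a median of 0.76 (0.29 to 0.84), and 0.49 (-0.29 to 0.63) without those arrays. Within groups Smtn varied more with some members than with others. Its r with Rgs5 was 0.33, and -0.29 without those arrays. Among 9911 genes with 1 symbol and a signal of at least 100 on some array, the 6 with the highest r to Acta2 were Ext1 (0.963), Ilk (0.958), Lgals1 (0.951), the member Tpm2 (0.950), Tead3 (0.948) and Mgp (0.942). Those closest to Rgs5 were the member Myl9 (0.981), Gpc3 (0.980), Gata3 (0.980), Agtr1a (0.975), Enah (0.974) and Cd248 (0.973). Gata3 is a transcription factor of mesangial cells, Agtr1a an angiotensin II receptor and Cd248 a surface protein of pericytes.

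In mesangial cells the Acta2 signal was higher and the Des and Smtn signals lower on every mutant array than on any wild type array, and no difference of a member passed the adjusted test. None of the 10 members passed an adjusted p of 0.05 in limma, where 2.92% of 11457 clusters did, and 5 passed an unadjusted p of 0.05, against 21.7%. Acta2 read 811, 1689 and 1562 in mutant mesangial cells against 627, 680.4 and 539 in wild type ones. The groups did not overlap, and mutant array A lay nearest to the wild type arrays. The log2 difference was 1.07 (SE 0.28, 95% interval 0.41 to 1.73, 2.1-fold, unadjusted p = 0.00648, adjusted p = 0.0949). Without mutant array A it was 1.41 and passed (adjusted p = 0.018), and without wild type array C it was 0.98 (adjusted p = 0.172).

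Tagln read 159.9, 313 and 495 in mutant and 152, 159 and 163 in wild type mesangial cells, so that arrays B and C were high and array A lay among the wild type values. The difference was 0.88 (SE 0.37, adjusted p = 0.229), and with each array left out in turn it ran from 0.50 to 1.32, the ends being without mutant arrays C and A. Des went the other way, with 279.5, 314 and 337 in mutant and 502, 594 and 376.6 in wild type mesangial cells and no overlap. Its difference was -0.64 (SE 0.17, 95% interval -1.05 to -0.23, adjusted p = 0.105), and without wild type array C, the one with markers of other cells, it was -0.82 and passed (adjusted p = 0.0342). Smtn read 176, 219 and 222 in mutant and 258, 299 and 238 in wild type cells, also without overlap, a difference of -0.37 (SE 0.13, adjusted p = 0.179).

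Rgs5 read 3062, 2676 and 2518 in mutant against 2319, 2229 and 2199.5 in wild type mesangial cells, a difference of 0.29 (SE 0.10, adjusted p = 0.16) with the groups apart. The remaining members did not pass an unadjusted p of 0.05: their differences were 0.28 for Tpm2, 0.15 for Cald1, 0.13 for Cnn1, -0.04 for Myl9 and -0.10 for Myh11, with adjusted p between 0.327 and 0.861. Over the members, groups did not overlap for 3 genes with higher mutant arrays (Acta2, Rgs5 and Cald1) and 2 with lower ones (Des and Smtn), where 12.3% of all clusters were higher and 16.3% lower without overlap. A screen at the study's cut-offs, a p under 0.05 and a fold change over 1.5, was run here with unadjusted p and is called the study's screen. It takes Acta2, Tagln and Des, and it takes 5.19% of all clusters. The median difference of the members was 0.14, beside -0.02 over all clusters. Most mesangial markers were lower in mutant mesangial cells. Of 10, Itga8, Pdgfrb and Art3 were lower and passed, where 1.68% of all clusters passed as lower, and 7 had a lower and 3 a higher mean. Groups did not overlap for 6 lower markers and for 1 higher one, Meis1 (0.39, adjusted p = 0.171). Their summed signal was 10509 to 12140 on mutant and 14222 to 15621 on wild type mesangial arrays. Podocyte markers summed to 731 to 860.3 on mutant and 920.1 to 2614 on wild type arrays, and endothelial markers to 2468 to 2744 and 2642 to 7968, the upper wild type values being those of array C. Of 9 endothelial markers tested, none had a higher mean. Tek (-1.19, adjusted p = 0.0497) and Ehd3 (-0.98, adjusted p = 0.0121) were lower without overlap and passed, where 1.68% of all clusters passed as lower. Of 4 fibroblast markers tested, 3 had a higher mean. Dcn (1.26, adjusted p = 0.0949) and Col1a2 (0.19, adjusted p = 0.213) were higher without overlap. Of 3 juxtaglomerular clusters, Akr1b7 (-0.81, adjusted p = 0.068) and Gja5 (-0.34, adjusted p = 0.19) were lower without overlap. The third, of the renin gene Ren1, was at 0.01. Without wild type array C, 2 mesangial and 2 endothelial markers passed as lower, 1 fibroblast marker as higher and 1 juxtaglomerular marker as lower. The part of all these markers in the member differences was not tested.

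Podocytes showed the widest spread within a group. None of the 9 members tested passed an adjusted p of 0.05 (0.0578% of 12113 clusters did), and Acta2 alone passed an unadjusted p of 0.05 (14.3% did). Acta2 read 1050.3, 781 and 247 in mutant against 266, 264 and 209 in wild type podocytes. Arrays A and B stood above every wild type array, and array C stood among them. The difference was 1.26 (SE 0.48, 2.4-fold, unadjusted p = 0.032, adjusted p = 0.311), and Acta2 was the 1 member past the study's screen, which took 5.61% of clusters.

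Tagln gave the widest split: 900.1, 499 and 96.9 in mutant and 122, 118 and 115 in wild type podocytes. Arrays A and B were at 570% and 316% of the wild type mesangial mean and array C at 61.3%. The difference was 1.57 (SE 0.71, adjusted p = 0.366). Tpm2 read 346, 322 and 141 in mutant and 164, 192 and 156 in wild type podocytes, with a difference of 0.56 (SE 0.33, adjusted p = 0.474). Here too arrays A and B were above and array C below all wild type arrays.

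Myl9 and Rgs5 differed from this. Myl9 read 1134, 1330.1 and 163 in mutant and 843, 926 and 806 in wild type podocytes, and Rgs5 read 747, 1632 and 300.2 in mutant and 857, 1010.4 and 869 in wild type podocytes. Array C was far below the wild type arrays in both genes, and array A was above them in Myl9 and below them in Rgs5. Their differences were -0.45 (SE 0.71, adjusted p = 0.804) and -0.35 (SE 0.53, adjusted p = 0.795). Myh11 differed by 0.37, Smtn by 0.09, Cald1 by -0.06 and Des by -0.13, all with adjusted p of 0.607 or more. Cnn1 stayed under 100 on all 6 arrays and was not tested.

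Without mutant podocyte array C, the podocyte differences were 2.50 for Tagln (SE 0.25, adjusted p = 0.0525), 1.89 for Acta2 (SE 0.19, adjusted p = 0.0525), 0.97 for Tpm2 (SE 0.14, adjusted p = 0.104), 0.52 for Myl9 (SE 0.14, adjusted p = 0.203) and 0.28 for Rgs5 (SE 0.32, adjusted p = 0.726). They were 0.58 for Myh11, 0.27 for Smtn, 0.19 for Des and 0.09 for Cald1. Myl9, Rgs5, Des and Cald1 changed sign with that array left out. Without mutant array A in its place the differences were smaller, 0.90 for Tagln (adjusted p = 0.414), 0.84 for Acta2 (adjusted p = 0.312) and 0.33 for Tpm2 (adjusted p = 0.588). In the fit without mutant podocyte array C, no cluster at all passed an adjusted p of 0.05 (0% of 11680).

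Most mesangial markers were below the wild type podocyte mean on mutant podocyte arrays A and B, where Acta2 and Tagln were high. Of 10, 8 were below it on array A, 7 on array B and 8 on array C. The exceptions were Art3 and Foxd1 on array A, these and Tbx18 on array B, and Foxd1 and Tbx18 on array C. On the log2 scale, set against the wild type podocyte mean, array A was at 2.10 for Acta2 and 2.93 for Tagln, beside -0.54 for Itga8, -0.38 for Pdgfrb and -0.32 for Gata3. Array B was at 1.67 and 2.08, beside -1.15, -1.41 and -0.01. Array C was at 0.01 and -0.29, beside -2.97, -1.49 and -1.45. The summed signal of the 8 mesangial markers other than Foxd1 and Ptn was 1150.2 to 3719 on mutant podocyte arrays, under the 4241 to 5491 of the wild type ones. That sum holds Igfbp5, which endothelial cells carried too. Igfbp5 read 850, 281 and 158.5 in mutant and 1230, 1520 and 954.5 in wild type podocytes. Ren1, the renin gene of juxtaglomerular cells, whose cluster also reads Ren2, was 789, 690.5 and 467 on the mutant podocyte arrays and 228, 134 and 228 on the wild type ones, above them on all 3 arrays. The other genes of that list did not follow it together. Akr1b7 read 219, 183 and 112 in mutant and 123, 102 and 109 in wild type podocytes. Gja5, a connexin also found in endothelial cells, read 729, 533 and 313 in mutant and 1646, 919 and 999 in wild type podocytes, lower without overlap (-1.21, adjusted p = 0.208). Endothelial markers were lower on the mutant arrays, with a summed signal of 951 to 2768 against 4541 to 5980. Erythroid markers summed to 5405, 720 and 232 on mutant arrays A, B and C, the order of Acta2 and Tagln on these arrays, and to 2987 to 3989 on the wild type ones. Whether cells of the arterioles or of the juxtaglomerular apparatus, or red blood cells, had a part in these values was not tested.

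**Figure D3:**
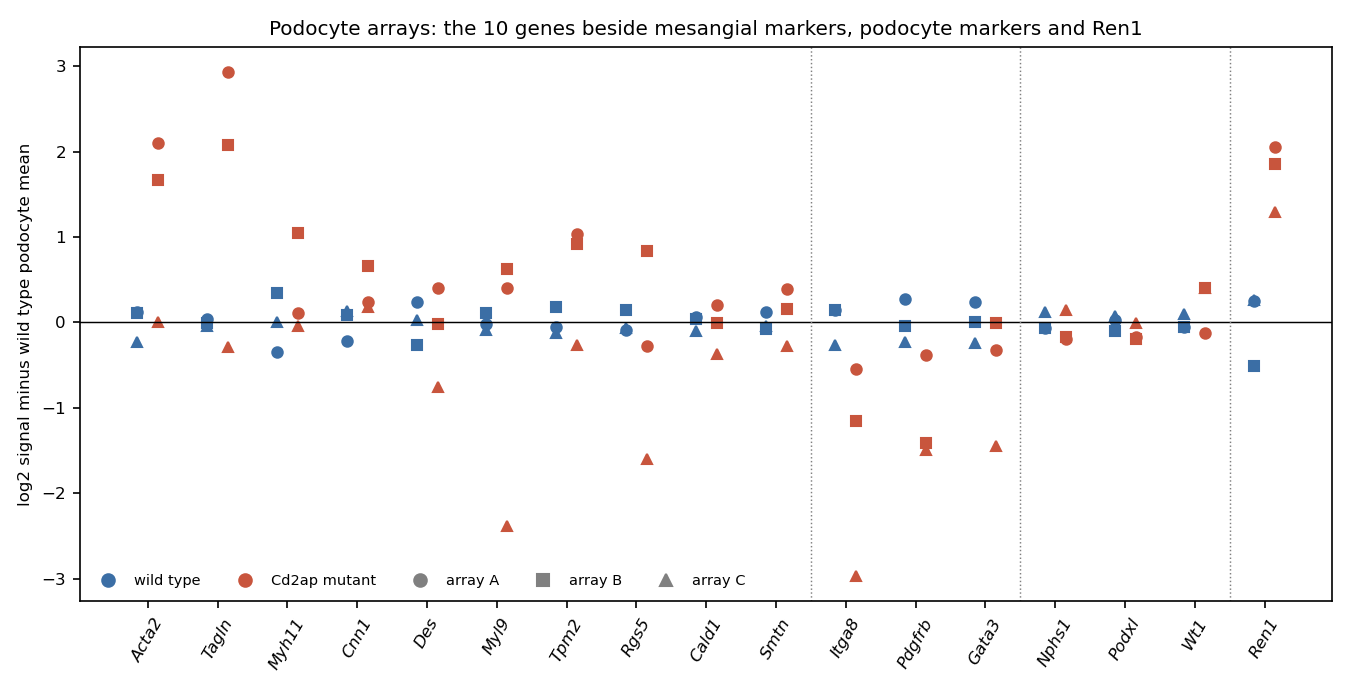
Log2 signal of each podocyte array minus the wild type podocyte mean (0 line), for the 10 genes and, right of the first dotted line, for 3 mesangial markers, 3 podocyte markers and Ren1. Mutant arrays A and B are above 0 for Acta2 (2.10 and 1.67) and Tagln (2.93 and 2.08) and below 0 for Itga8, Pdgfrb and Gata3 (-0.01 on array B), and array C falls to -2.39 for Myl9.

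In endothelial cells 6 of the 10 members stayed under 100 on all 6 arrays, while Cald1 and Smtn were above it on all of them. Only Acta2, Myl9, Cald1 and Smtn reached 100 on some array and were tested. None passed an adjusted p of 0.05 (1.29% of 11330 clusters did), and none passed an unadjusted p of 0.05 (18.5% did). Cald1 read 1160.3, 1317 and 1308 in mutant and 1220.4, 1120.3 and 1021 in wild type endothelial cells, a difference of 0.17 (SE 0.10, adjusted p = 0.405). Smtn read 224, 234 and 259 in mutant and 217, 208 and 190.3 in wild type cells, higher without overlap, by 0.22 (SE 0.10, adjusted p = 0.283), where 17.7% of all clusters were higher without overlap. Acta2 differed by 0.19 (SE 0.34) and Myl9 by 0.05 (SE 0.18). The other 6 genes ran from 31.5 to 92.7 over the 6 endothelial arrays.

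**Figure D4:**
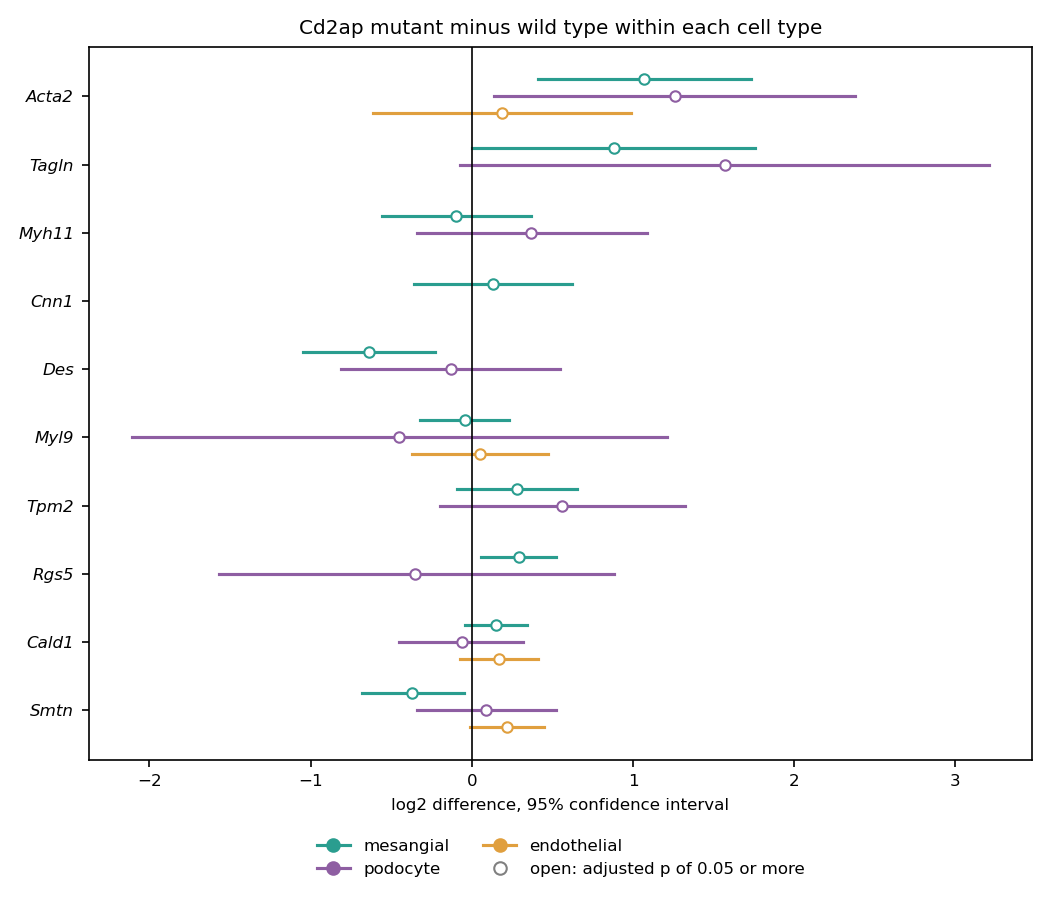
Mutant minus wild type difference of each gene within each cell type (log2 scale, points, with 95% confidence intervals); all points are open because no adjusted p was under 0.05, and a cell type is missing where the gene stayed under 100. Mesangial Acta2 (1.07) and Des (-0.64) lie apart from 0 in opposite directions, and the podocyte intervals of Tagln and Myl9 are the widest.

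Whether the mutation acted differently in the cell types was tested directly, as the difference between the genotype differences in a limma fit over all 18 arrays. None of the 10 members passed an adjusted p of 0.05 in any of the 3 contrasts (0.717% of clusters passed between mesangial cells and podocytes, 1.07% between mesangial and endothelial cells and 2.11% between podocytes and endothelial cells), and 1 member passed an unadjusted p of 0.05 in each, where 12.0%, 15.9% and 23.4% of clusters did. The gene was Smtn for mesangial minus podocyte (-0.46, adjusted p = 0.397) and for mesangial minus endothelial (-0.59, SE 0.21, adjusted p = 0.183), and Tpm2 for podocyte minus endothelial (0.74, adjusted p = 0.213). Tpm2 stayed under 100 on all 6 endothelial arrays, as Tagln did, so for both genes the endothelial side of a contrast lies near the floor of the array, and they entered the fit through the other cell types. Without mutant podocyte array C, Tagln (2.39, SE 0.44, adjusted p = 0.0194) and Tpm2 (1.16, SE 0.20, adjusted p = 0.0152) passed in the last contrast, where 2.44% of clusters did. For Acta2, the gene with the largest mesangial difference, the mesangial minus podocyte contrast was -0.19 with a 95% interval of -1.52 to 1.15.

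Other genes of the contractile program were read from lists chosen with earlier results of these data known. Of 17 further contractile genes tested in mesangial cells, 1 rose and 1 fell at an adjusted p under 0.05 (1.25% of all clusters rose and 1.68% fell), with a median difference of 0.18 beside -0.02. Csrp2, a LIM protein of smooth muscle, rose from 190.5, 178 and 172 in wild type to 359, 468 and 506 in mutant cells, a difference of 1.29 (SE 0.14, adjusted p = 0.0116). Itga8 fell from 2892, 3126 and 2904 to 1975, 1886 and 2080.5, a difference of -0.59 (SE 0.08, adjusted p = 0.0235). In both genes the groups did not overlap. Mylk, the kinase that phosphorylates the myosin light chain, was at -0.32 (adjusted p = 0.0911) and the tropomyosin Tpm1 at 0.18 (adjusted p = 0.39). Actg2, the enteric smooth muscle actin, stayed between 46.3 and 59.4 on all 18 arrays and entered no comparison.

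Of 16 further pericyte genes tested in mesangial cells, 3 fell and none rose (1.68% of all clusters fell and 1.25% rose), with a median of -0.32 beside -0.02 over all clusters. Ano1, a calcium-activated chloride channel of contractile cells, fell from 1037, 1243 and 1076 in wild type to 343, 396 and 318 in mutant cells (-1.67, SE 0.12, adjusted p = 0.00299). Abcc9, the sulfonylurea receptor subunit of pericyte potassium channels, fell from 369.1, 277 and 269 to 132, 109 and 138 (-1.26, SE 0.15, adjusted p = 0.0147). Pdgfrb fell from 1481, 1706 and 1599 to 1188, 988 and 1038 (-0.58, SE 0.10, adjusted p = 0.042). All 3 had mutant arrays wholly below the wild type arrays. Without wild type array C, 3 of 14 fell, with Ndufa4l2 (adjusted p = 0.0182) among them. Pdgfrb did not pass in that fit, though wild type arrays A and B, at 1481 and 1706, still lay above all its mutant arrays. The shares of all clusters given above belong to the fit with all arrays. Cspg4, the NG2 proteoglycan, was at -0.37 (adjusted p = 0.219), and Notch3, a receptor of mural cells, was at 0.15 (adjusted p = 0.334). Of the 16 genes, 7 were lower without overlap, the 3 that passed included, and 4 were higher without overlap. Of all clusters, 16.3% were lower and 12.3% higher without overlap. The higher ones did not pass. Among them Cygb, a globin, read 349, 277 and 421 in mutant against 208, 109 and 132 in wild type cells (1.25, SE 0.26, adjusted p = 0.0597), Higd1b differed by 0.47 (adjusted p = 0.0936) and Cd248 by 0.29 (adjusted p = 0.136).

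Paralogues outside smooth muscle gave a separate reading. Of 2 striated muscle genes tested in mesangial cells 1 rose, where 1.25% of all clusters did: Tnnt2, cardiac troponin T, from 216, 189 and 157 in wild type to 438, 619 and 682 in mutant cells (1.62, SE 0.19, adjusted p = 0.0147), with no overlap. Of 12 non-muscle paralogues none passed an adjusted p of 0.05 (2.92% of all clusters did), and 1 passed an unadjusted p of 0.05 (21.7% did). Actb, cytoplasmic actin, read 3887, 4327 and 4351 in mutant and 4332, 4454 and 4234 in wild type mesangial cells, a difference of -0.05 (SE 0.08, adjusted p = 0.751). Myl12a was not matched in the table.

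Of 8 genes of the Srf and myocardin axis tested in mesangial cells, none passed an adjusted p of 0.05, and 5 passed an unadjusted p of 0.05, where 21.7% of all clusters did. Mkl1 read 97.4, 101 and 100.4 in mutant and 80.2, 76.9 and 83.5 in wild type mesangial cells, a difference of 0.32 (SE 0.08, adjusted p = 0.0843) with the groups apart. Srf read 97.7, 85.0 and 95.7 and 82.8, 91.0 and 84.3, under 100 on all 6 arrays, and Myocd stayed between 31.3 and 50.9 on all 18 arrays. In podocytes none of the 9 axis genes tested passed, and 2 passed an unadjusted p of 0.05, where 14.3% of all clusters did: the Srf and YAP target genes Cyr61, at 585, 807 and 312 in mutant and 161, 229.7 and 236 in wild type podocytes (1.36, adjusted p = 0.177), and Ctgf, at 546, 766 and 581 and 345, 408 and 380.3 (0.73, adjusted p = 0.154). In both, all 3 mutant arrays were above the wild type ones, array C included. In endothelial cells 1 of 9 axis genes passed, where 1.29% of all clusters did. An unadjusted p of 0.05 was passed by 5, all higher (18.5% of all clusters did in either direction). The median was 0.30 beside 0.07 over all clusters.

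Among further contractile genes of podocytes none of 18 passed an adjusted p of 0.05 and 6 passed an unadjusted p of 0.05, 3 higher and 3 lower, where 14.3% of all clusters passed the latter. Csrp1, a LIM protein of smooth muscle, read 646, 663 and 399.9 in mutant and 316, 297 and 278 in wild type podocytes (0.90, adjusted p = 0.157). Tpm1, a second tropomyosin, read 1388, 1337 and 1168 and 835, 921 and 942 (0.53, adjusted p = 0.173). For these genes, unlike Acta2, Tagln and Tpm2, the groups did not overlap. Of the 18 genes, 4 were higher and 3 lower without overlap. The share of all clusters without overlap in podocytes is not given here. A lack of overlap in podocytes, here and above, therefore only describes the arrays of a gene. Among the lower ones, Prkg1, a kinase activated by cyclic GMP, read 387, 346 and 373.7 in mutant and 474, 523 and 554 in wild type podocytes (-0.49, adjusted p = 0.183) without overlap, Itga8 differed by -1.55 (adjusted p = 0.277; -0.84 without array C, adjusted p = 0.205) without overlap, and Pln, phospholamban, by -0.51 (adjusted p = 0.314) with overlap. Csrp1, Ctgf, Cyr61, Ndufa4l2, Cygb, Higd1b, Prkg1 and Pln were named after their values were seen. In endothelial cells 2 of 44 genes of the related lists passed, where 1.29% of all clusters did: Synm, an intermediate filament protein that binds desmin, was lower at 98.0, 108 and 91.5 in mutant against 175, 152 and 143 in wild type cells (-0.66, SE 0.11, adjusted p = 0.0384), and Mkl2 was higher at 536, 407 and 451 against 295, 274 and 305 (0.67, SE 0.12, adjusted p = 0.0442).

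**Figure D5:**
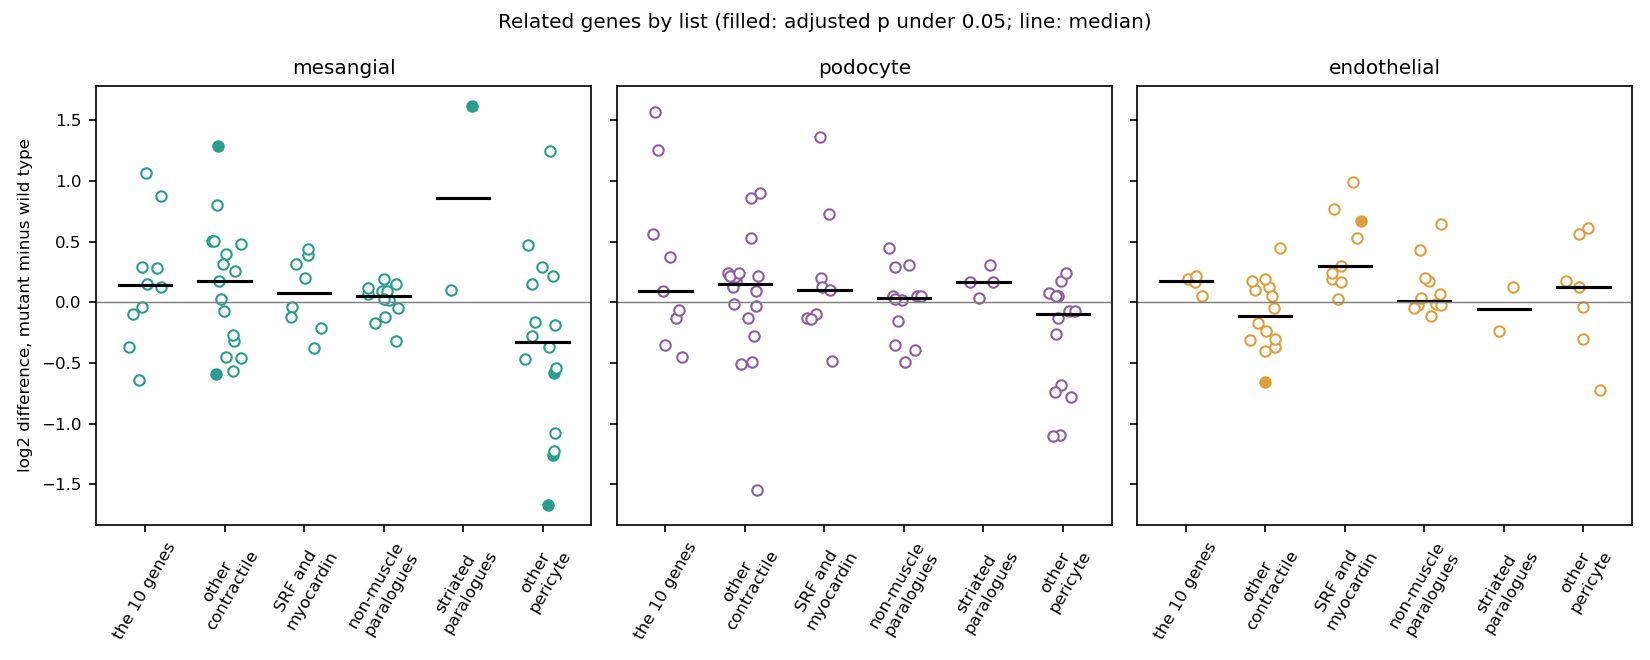
Mutant minus wild type log2 difference of each gene tested, by list and cell type; filled points passed an adjusted p of 0.05 and the line is the median of the list. In mesangial cells the further pericyte genes have a median of -0.32 while the 10 genes have 0.14.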

How the data were processed

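Ribo-SPIA, which copies small amounts of RNA linearly, was run for 1 round on the RNA of the sorted GFP positive cells before hybridization. The file header and the methods name Mouse Gene ST arrays of Affymetrix, while the series record names Exon ST arrays. The authors deposited 1 linear intensity per transcript cluster and array, made by RMA, which subtracts background, gives all arrays the same distribution and joins the probes of a cluster. The table holds 18 further columns, normalized values of arrays, that were not used here. The amplification and the shared distribution can compress differences, and the number of arrays, 3 a group, limits the precision.

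A gene with several clusters was read from the one of highest mean signal. The log2 of the signal was fitted in limma 3.58.1 (R 4.3.3; lmFit, eBayes) without covariates. Genotypes were compared within a cell type on its 6 arrays, over clusters with a signal of at least 100 on at least 1 of them, and cell types and the differences between genotype effects in a fit over all 18 arrays and 13523 clusters. A call is a Benjamini-Hochberg adjusted p under 0.05 over all clusters tested, and tests are two-sided. The fit was tested on simulated data. Alternatives were other scalings, minimums, sets of arrays, a variance trend with robust estimation, 50 added to the signal, the study's screen and each array left out. Lists without wild type mesangial array C or mutant podocyte array C were chosen after seeing the data. Slides and scan dates were not given in the sources used here, so no batch could be fitted.

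Named genes are the members, Cd2ap, the genes of the related lists with a call in a genotype comparison, the genes of the actin, Srf and pericyte groups that stand in the text without a call, the 6 genes most like Acta2 and like Rgs5, and markers. Of the podocyte markers listed, 2 are not reported here and entered no sum. The members and lists were chosen with earlier results of these data known.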

Additional observations from a re-analysis of the deposited data

Results flagged for a closer look

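The Smtn differences had opposite signs in mesangial and endothelial cells, and neither passed (limma adjusted p = 0.179 and 0.283). Of all clusters, 16.3% were lower without overlap in mesangial cells and 17.7% higher in endothelial cells. For Smtn, all 3 mutant mesangial arrays (176, 219 and 222) were below all 3 wild type ones (258, 299 and 238). All 3 of its mutant endothelial arrays (224, 234 and 259) were above the wild type ones (217, 208 and 190.3). The genotype difference in mesangial cells minus that in endothelial cells was -0.59 on the log2 scale (limma, SE 0.21, unadjusted p = 0.0128), and it did not pass after adjustment (adjusted p = 0.183).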

How the results depend on the processing

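Of 189 counts of called members, cell type comparisons included, recomputed under an alternative, 173 were within 1.5 times the reported count and 16 were not. The reported counts of the genotype differences and of their contrasts were 0, and each 0 that stayed 0 is among the 173. For the genotype difference in mesangial cells the count of 0 became 1 with a variance trend and robust estimation (Rgs5, 0.29, adjusted p = 0.0494) and 3 under the study's screen, and in podocytes that screen gave 1. The 8 members higher in wild type mesangial cells than in podocytes became 5 with no minimum signal. In mutant cells, the 5 members higher in mesangial cells than in podocytes became 3 with only the 6 arrays of those groups, and the 8 higher in podocytes than in endothelial cells became 5 with a signal of at least 100 asked in all arrays of a group. With each array left out in turn the counts ran from 0 to 1 for the mesangial genotype difference, from 5 to 6 and from 5 to 8, Tagln counting as lower in 1 of the fits, for mesangial against podocyte in wild type and in mutant cells, and from 0 to 2 for the podocyte against endothelial contrast of genotype differences. Leaving out an array changed the sign of these log2 differences, whose ranges were -0.30 to 0.11 for Myh11, -0.12 to 0.04 for Myl9 and -0.02 to 0.34 for Cnn1 in mesangial cells, -0.06 to 0.27 for Smtn, -0.39 to 0.19 for Des, -0.99 to 0.52 for Myl9, -0.94 to 0.28 for Rgs5 and -0.19 to 0.09 for Cald1 in podocytes, and -0.14 to 0.14 for Myl9 and -0.08 to 0.62 for Acta2 in endothelial cells. No genotype difference of a member had passed in the reported fits, so none could lose a call. Of 318 recomputed log2 differences between genotypes, 303 kept direction and side of the threshold, 3 passed it newly and 12 changed sign. The causes were not tested. Subtracting array medians moved an array by at most 0.12 and quantile normalization by at most 0.05 on the log2 scale. The planned fit of the normalized columns was not run, since 1 set of columns was used for each group. No paired analysis was possible because the records number the samples singly and no number is shared between groups. Signals under 100 lie near the floor of the array, which can compress the differences from endothelial cells of the members that stayed under it there; Cald1 and Smtn were above it.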

Other observations

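The related lists also differed between wild type cell types. Of 18 further contractile genes tested, 11 were higher and 3 lower in mesangial than in endothelial cells at an adjusted p under 0.05 (13.9% of all clusters were higher and 13.3% lower), with a median difference of 1.11 on the log2 scale. Of 17 further pericyte genes, 13 were higher and 1 lower, with a median of 0.97. Of 10 genes of the Srf and myocardin axis, 5 were higher and 2 lower, with a median of 0.35. Of 12 non-muscle paralogues, 5 were higher and 2 lower, with a median of 0.25. Between wild type mesangial cells and podocytes the medians were 0.43 for further contractile genes (8 higher and 1 lower of 18) and 0.75 for further pericyte genes (11 higher and 1 lower of 17), where 13.6% of all clusters were higher and 9.47% lower.

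In podocytes 4 of 14 further pericyte genes tested had an unadjusted p under 0.05, where 14.3% of all clusters did, all lower in mutant cells and none with an adjusted p under 0.05: Pdgfrb (-1.09, adjusted p = 0.205), Ndufa4l2 (-0.78, adjusted p = 0.222), Gja4 (-0.68, adjusted p = 0.175) and Rgs2 (-1.10, adjusted p = 0.167). Pdgfrb read 434, 213 and 201 in mutant and 682, 551 and 482 in wild type podocytes. The last 3 of the 4 were named after their values were seen.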
